A study of Mus musculus with 56 samples.

Results

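Interferon-stimulated genes are the transcripts that cells raise after interferon binds its receptor. Here 38 of them were followed by name through 56 microarrays of cultured mouse cortical neurons. Every probe set that carried the symbol of 1 member alone was read, and the brightest one stood for the gene. The members are among 22180 genes with such a probe set on the later gene-level arrays (35 members measured), 18820 on the earlier gene-level arrays (36 members) and 18194 on the 3′ arrays (37 members). The later, earlier and 3′ types were MoGene 2.1 ST, MoGene 1.1 ST and Mouse430_2, in that order. Ddx58 is the gene now also written Rigi.

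Type I interferon binds the receptor made of Ifnar1 and Ifnar2, whose kinases Jak1 and Tyk2 phosphorylate STAT proteins. Stat2 and Irf9 are parts of the complex that then binds interferon-stimulated response elements in promoters. The products of the induced genes sense viral RNA, block translation and viral entry, attach the ubiquitin-like ISG15 to proteins, and load peptides for antigen presentation. Neurons, astrocytes and microglia all mount this response, and Ddx58 and Ifih1 can start it from RNA and Zbp1 from nucleic acids without virus.

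All neurons came from the cortex of C57BL6 embryos of embryonic day 13 to 15, were grown for 7 days in vitro, and were treated for 24 or 72 h per the labels' protocols. Lentiviruses carried an shRNA against Top1 (n = 3) or Top2b (n = 3), and a scrambled shRNA in the control (n = 3), so that control cells were transduced too. Topotecan, an inhibitor of topoisomerase I, was given at 1 µM (n = 6, with 6 vehicle arrays), at 300 nM (n = 3, with 3 vehicle arrays, on 3′ arrays) and in a dose series. That series, on earlier gene-level arrays, used single arrays for doses of 3, 30, 150, 500 and 1000 nM, a pair of arrays for 300 nM and 3 for vehicle. Irinotecan, another camptothecin derivative, was given at 10 µM (n = 3), and topotecan for 24 h without (n = 1) and with washout (n = 1); these 3 groups shared 2 vehicle arrays. ICRF-193, an inhibitor of topoisomerase II, was given at 3 µM (n = 3, with 3 vehicle arrays, on 3′ arrays). DRB, an inhibitor of transcription elongation, was given at 100 µM (n = 1, with 1 vehicle array). Hydrogen peroxide at 100 µM (n = 1) and paraquat at 10 µM (n = 1), both oxidants, shared 2 vehicle arrays. Pooling of embryos and the identity of cultures are not stated in the labels, so p-values measure only the spread between these samples, which may be technical.

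Values are log2 of the deposited intensity. They are comparable for 1 gene between arrays of 1 experiment, not between genes or array types. Genes whose mean log2 intensity fell under the 40th percentile of their array type were left out of the tests as dim. That kept 26 members on the later gene-level arrays, 13 on the earlier ones and 19 on the 3′ arrays. The mean was taken over all arrays of the type, so a kept gene can lie under the limit within an experiment. The members dim on the later arrays were Zbp1, Irf7, Mx1, Mx2, Bst2, Samd9l, Isg15, Gbp3 and Psmb8. Oas1a, Dtx3l and Gbp2 had only probe sets shared with another gene there, as did Isg15 on the 3′ arrays, while Parp9 and Dtx3l had none of their own on the earlier arrays. A change was called at an adjusted p under 0.05 by limma over all genes kept on that array type. Counts from fits with 1 array left out mostly stand without the share of all genes called there. Such counts do not set the members apart from other genes.

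Arrays of 1 type did not all share a level. The mean intensity of shRNA replicate 1 was 178 to 180 in all 3 groups, and that of replicates 2 and 3 was 138 to 143. The main shRNA fit, its SDs and the counts of groups without overlap pool both levels. The shRNA values are therefore also given within each replicate number. All 10 neuron markers listed passed the dim limit on the later gene-level and 3′ arrays, and all 9 measured on the earlier ones. Markers of other cells passed as well, with 9 of 10 for astrocytes, 7 of 8 for fibroblasts and meninges and 7 of 12 for microglia on the later arrays; Aif1, Csf1r, P2ry12, Itgam and C1qc were the dim microglia markers there. In such mixed cultures fewer cells of a type and less RNA per cell cannot be told apart. All 38 members are short, spanning 1.16 to 94.0 kb in RefSeq with a median of 12.9 kb, and none exceeded 100 kb.

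The letters of the interferon-stimulated response element are in many of these promoters. RefSeq promoters (GRCm38.p6, 250 bases before to 50 after the start) were matched for 30 of the 38 members. On either strand, GAAANNGAAACT, a full response element, was in a promoter of 9 of these 30 members (30.0%), against 82 of 27025 genes (0.303%). GAAANNGAAA, its core, which every full element contains, was in 16 of 30 (53.3%), against 3.99% of all genes. TTCNNNGAA, the gamma-activated site, was in 8 of 30 (26.7%), against 9.55% of all genes. Genes without a promoter entry were left out, and a gene with several counted if any held the letters. A match describes letters and does not show a bound site.

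The 7 windows below belong to members that were called higher with Top1 shRNA and hold at least the core, and the eighth belongs to Cxcl10, the chemokine that moved the other way with topotecan at 1 µM. Capitals mark the element, read 5′ to 3′ on the strand of the gene, so that an element on the other strand appears as its reverse complement.
Ddx58, chr4:40239802-40239837, strand -: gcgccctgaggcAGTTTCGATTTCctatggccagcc
Ifih1, chr2:62646206-62646235, strand -: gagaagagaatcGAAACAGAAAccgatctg
Ifit1, chr19:34640790-34640825, strand +: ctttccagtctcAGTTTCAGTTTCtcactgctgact
Ifitm3, chr7:141010719-141010754, strand -: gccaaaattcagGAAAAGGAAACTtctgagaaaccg
Eif2ak2, chr17:78882535-78882564, strand -: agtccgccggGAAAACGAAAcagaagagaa
Trim21, chr7:102565450-102565479, strand -: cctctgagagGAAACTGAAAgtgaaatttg
B2m, chr2:122147536-122147569, strand +: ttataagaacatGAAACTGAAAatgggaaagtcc
Cxcl10, chr5:92349079-92349114, strand -: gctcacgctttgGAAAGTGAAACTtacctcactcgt

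Counted from 1 at the start of the gene, the full element of Ddx58 covers positions 1 to 12 and lies on the opposite strand, and that of Ifitm3 covers positions 3 to 14 on the same strand, with another at 20 to 31. Ifit1 holds 2 full elements upstream, at −87 to −76 and −106 to −95, both on the opposite strand. The Cxcl10 element lies furthest upstream of the 8, at −213 to −202. The promoters of Ddx58 and Ifit1, the members with the largest changes under Top1 shRNA, are given from position −250 to 30 for context, with full elements in capitals.
Ddx58 promoter, chr4:40239796-40240075, strand -: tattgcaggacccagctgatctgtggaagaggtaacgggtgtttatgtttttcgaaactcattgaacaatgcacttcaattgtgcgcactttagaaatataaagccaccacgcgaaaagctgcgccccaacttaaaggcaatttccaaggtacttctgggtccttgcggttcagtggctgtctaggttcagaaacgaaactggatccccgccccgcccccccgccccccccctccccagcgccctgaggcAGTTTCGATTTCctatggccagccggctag
Ifit1 promoter, chr19:34640639-34640918, strand +: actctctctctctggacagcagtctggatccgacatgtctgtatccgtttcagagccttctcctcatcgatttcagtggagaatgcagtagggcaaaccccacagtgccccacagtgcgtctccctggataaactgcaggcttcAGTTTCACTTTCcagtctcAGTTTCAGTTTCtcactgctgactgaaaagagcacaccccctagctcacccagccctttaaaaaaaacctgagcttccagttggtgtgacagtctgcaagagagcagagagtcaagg

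Of the 26 members tested 13 were higher with Top1 shRNA than with control shRNA and none was lower. Of all 13308 genes tested, 6.08% were called higher and 5.79% lower in the same fit. The median change of the 26 members was 1.40 on the log2 scale, that of all genes was −0.02, and 24 of the 26 changes were positive. The groups did not overlap, with every Top1 shRNA array above every control array, for 18 of the 26 members, against 15.4% of all genes. At an unadjusted p under 0.05 there were 22 members, against 27.3% of all genes.

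Among the RNA sensors 2 of 3 were higher. Ddx58, which detects short double-stranded RNA with a triphosphate end, read 7.51, 8.81 and 9.19 in Top1 shRNA arrays 1, 2 and 3, against 6.49, 6.18 and 6.35 in control shRNA arrays 1, 2 and 3. All Top1 shRNA arrays lay above all control arrays, the first by the least. The means were 8.50 ± 0.88 with Top1 shRNA and 6.34 ± 0.15 with control shRNA (SD, n = 3 each), a log2 change of 2.16 (SE 0.40, adjusted p = 0.00975). Ifih1, which detects long double-stranded RNA, read 6.23, 7.33 and 8.11 in Top1 shRNA arrays, against 5.74, 5.33 and 4.76 in control arrays, a change of 1.95 (SE 0.44, adjusted p = 0.0216). Dhx58, a regulator of both, changed by 0.74 (adjusted p = 0.138) and was not called.

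Of the 11 antiviral effectors tested, 4 were higher. Ifit1, which binds viral RNA lacking a host cap, read 6.39, 7.50 and 8.33 in Top1 shRNA arrays, against 5.84, 5.26 and 4.86 in control arrays, a change of 2.09 (SE 0.51, adjusted p = 0.0276). Eif2ak2, the kinase PKR that stops translation on double-stranded RNA, read 7.58, 7.78 and 8.24 in Top1 shRNA arrays, against 6.54, 6.03 and 5.69 in control arrays, a change of 1.78 (SE 0.29, adjusted p = 0.00671). Ifitm3, which restricts entry of enveloped viruses, read 9.16, 10.78 and 10.61, against 8.70, 8.76 and 8.50 in control arrays, a change of 1.53 (SE 0.39, adjusted p = 0.0314). In each of these 3 genes the groups stood apart. Ifi35 changed by 1.46 (adjusted p = 0.0177).

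Other effectors were not called. Ifit3, a partner of Ifit1, read 7.15, 5.57 and 6.16 with Top1 shRNA, against 6.96, 5.67 and 6.05 with control shRNA, a change of 0.07 (adjusted p = 0.950), and the groups overlapped throughout. Adar, which edits double-stranded RNA and so dampens sensing, read 8.04, 7.74 and 7.64 with Top1 shRNA, against 8.72, 7.88 and 8.04 with control shRNA, a change of −0.41 (adjusted p = 0.393). Oasl2, Rtp4 and Xaf1 had changes of 1.82, 1.41 and 1.25 with adjusted p of 0.0855, 0.110 and 0.0561.

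The genes of ISG15 conjugation, ubiquitin ligation and ADP-ribosylation gave the most calls per gene, with 5 of 6 higher. Herc6, the mouse ligase that attaches ISG15, read 7.03, 7.82 and 8.10 with Top1 shRNA, against 5.72, 5.50 and 5.90 with control shRNA, a change of 1.94 (SE 0.33, adjusted p = 0.00713). Trim25, the ubiquitin ligase that activates Ddx58, changed by 1.54 (adjusted p = 0.0081), the Fc-binding ligase Trim21 by 1.10 (adjusted p = 0.0342), and the ADP-ribosyltransferases Parp14 and Parp9 by 1.39 (adjusted p = 0.0340) and 1.27 (adjusted p = 0.0251). The sixth was Usp18, which removes ISG15 and blocks the receptor. Usp18 read 5.69, 8.55 and 8.66 with Top1 shRNA, against 5.93, 5.83 and 5.74 with control shRNA: Top1 shRNA array 1 lay below every control array and the other 2 far above them. Its change of 1.80 had an adjusted p of 0.107.

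Of the antigen presentation genes 2 of 3 were higher. Tap1, the peptide transporter subunit, changed by 1.56 (adjusted p = 0.0129). B2m, the light chain of class I molecules, read 12.02, 12.40 and 12.42 with Top1 shRNA, against 10.95, 11.57 and 11.53 with control shRNA, a change of 0.93 (SE 0.24, adjusted p = 0.0343). Psmb9, an immunoproteasome subunit, changed by 0.97 (adjusted p = 0.0682). The transcription factors were not called: Irf9 changed by 0.80 (adjusted p = 0.118) and Stat2 by −0.04 (adjusted p = 0.956). Cxcl10, a chemokine that draws T cells, changed by 1.56 (adjusted p = 0.0926). With the array set as a block, replicate 1 against replicates 2 and 3, 16 members were higher, against 13.6% of all genes. The 3 added to the 13 were Psmb9 (adjusted p = 0.0151), Xaf1 (0.0245) and Ifit2 (0.0338). The 9 dim members, outside the test, all had positive differences, from 0.07 to 1.22 with a median of 0.70.

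**Figure D1:**
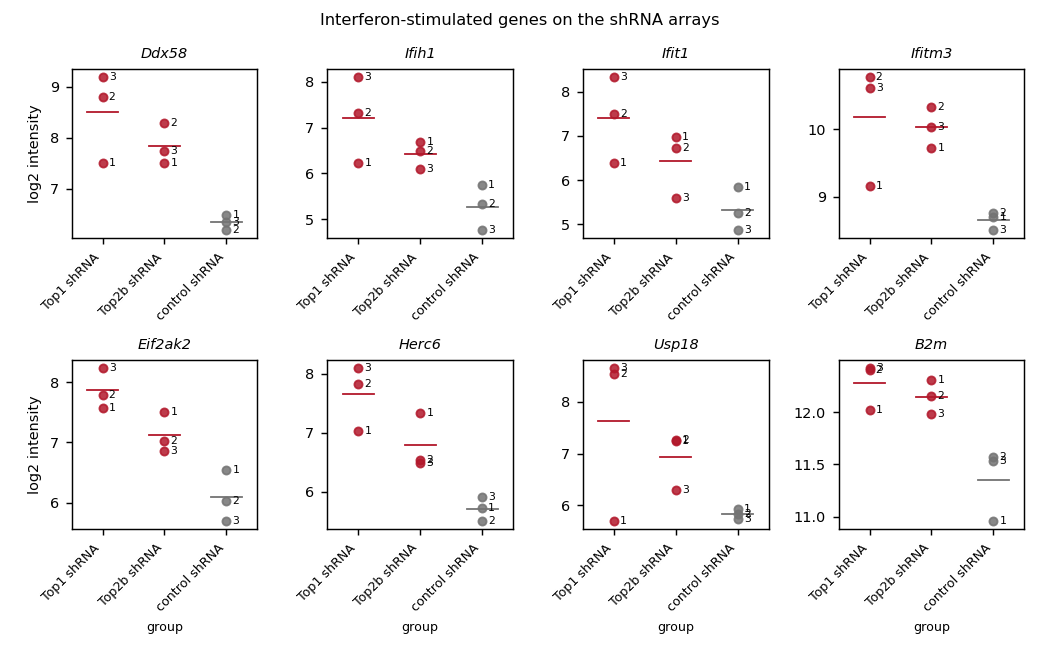
Log2 intensity (vertical axes) of 8 members in Top1 shRNA, Top2b shRNA and control shRNA arrays, 3 arrays a group. Points are arrays with their replicate number and bars are group means. Ddx58 spans 7.51 to 9.19 with Top1 shRNA, above its control range of 6.18 to 6.49, and Usp18 shows Top1 shRNA replicate 1 at the level of the controls.

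The size of the difference varied with the replicate number. Between arrays of the same number, the median member differed by 0.52, 1.48 and 1.94 (Top1 shRNA minus control, replicates 1, 2 and 3), while the median of all genes differed by 0.02, 0.00 and −0.07. Counting differences over 1.5-fold, 12, 22 and 22 of the 26 members were higher in replicates 1, 2 and 3, against 18.8%, 19.0% and 18.0% of all genes. In all 3 pairs 19 of the 26 members were higher, against 25.6% of all genes. Adar alone was lower in all 3. In the pair of replicate 1 Usp18 differed by −0.24 and Oasl2 by −0.0027, and in the pairs of replicates 2 and 3 they differed by 2.72 and 2.92 and by 2.22 and 3.23.

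Over replicates 2 and 3 alone, a choice that rests on an earlier look at these arrays, 21 of 26 members were higher with Top1 shRNA, against 20.1% of all genes, and none was lower. Ifit1, Usp18, Ddx58 and Oasl2 then changed by 2.85, 2.82, 2.73 and 2.73. Leaving out 1 array of the 3 groups at a time gave 4 to 19 calls, with no share of all genes given. The counts were 6 without control shRNA replicate 2, and 4 each without control shRNA replicate 3, Top1 shRNA replicate 2 or Top1 shRNA replicate 3. Of all 35 members measured, with dim genes in the test, 5 were called higher, against 614 of all 22180 genes in either direction.

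The targeted transcripts followed a different order over the replicates. Top1 itself read 7.62, 8.39 and 8.29 with Top1 shRNA, against 8.98, 8.46 and 8.55 with control shRNA. Within replicate numbers it differed by −1.36, −0.07 and −0.27, and the fit gave −0.57 (adjusted p = 0.193). Replicate 1, with the largest difference in Top1, had the smallest median difference in the members. Top2b read 8.62, 6.87 and 6.80 with Top2b shRNA, against 9.30, 8.39 and 8.17 with control shRNA, a change of −1.19 (adjusted p = 0.220).

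With Top2b shRNA none of the 26 members passed the test, against 3.11% of all genes called in either direction. At an unadjusted p under 0.05 there were 8, against 17.6% of all genes. The median member changed by 0.69, that of all genes by −0.04, 24 of 26 changes were positive, and for 10 of 26 every Top2b shRNA array lay above every control array, against 12.7% of all genes. Both shRNA comparisons use the same 3 control arrays. Ddx58 read 7.49, 8.29 and 7.73 with Top2b shRNA, against 6.49, 6.18 and 6.35 with control shRNA, without overlap, a change of 1.501 (adjusted p = 0.0763). Ifitm3 read 9.72, 10.33 and 10.04, against 8.70, 8.76 and 8.50 with control shRNA, a change of 1.38 (adjusted p = 0.0893).

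Same-numbered Top2b shRNA and control arrays deviated together. Replicate 1 also stood at another intensity level in every shRNA group, so pairing and array set cannot be told apart. With the number as a block in the fit of all 3 shRNA groups, 4 members were called higher, against 5.58% of all genes. They were Ddx58 (adjusted p = 0.0354), Ifitm3 (adjusted p = 0.0317), Tap1 with a change of 1.10 (adjusted p = 0.0195) and B2m with 0.80 (adjusted p = 0.0480). Over replicates 2 and 3 alone, chosen after an earlier look at these arrays, 8 were higher, against 10.1% of all genes. In the same fit 2 were lower, against 12.5%. The 8 were Ddx58 (1.75), Ifitm3 (1.56), Ifih1 (1.25), Tap1 (1.20), Eif2ak2 (1.07), Ifi35 (0.87), Herc6 (0.81) and B2m (0.52). The 2 lower members were Stat2 (−1.07) and Adar (−0.47). Without Top1 shRNA replicate 1, which shares the fit, 3 members were called, with no share of all genes given.

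Set directly against each other, Top1 and Top2b shRNA gave no call among the members and none among all genes (0.0%, with 8 members and 6.06% of all genes at an unadjusted p under 0.05). The median member was 0.66 higher with Top1 shRNA, and 25 of 26 differences were positive. Within replicate numbers the median difference was −0.08, 0.63 and 1.42. Usp18 differed by −1.56 between Top1 shRNA and Top2b shRNA in replicate 1 and by 1.28 and 2.37 in replicates 2 and 3, so the sign turned between the array sets. Over replicates 2 and 3 alone 17 of 26 members were higher with Top1 shRNA, against 6.43% of all genes. They were led by Oasl2 (2.08), Usp18 (1.82), Ifit1 (1.76) and Trim25 (1.66). That choice of replicates rests on an earlier look at these arrays. In the pair of replicate 1, which it leaves out, 10 of 26 differences were positive.

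Markers of other cells moved with the shRNA groups. With Top1 shRNA 5 of 7 fibroblast and meningeal markers were higher (median change 1.49), and 3 of 10 neuron markers were lower (median −1.09), namely Slc17a7, Neurod6 and Rbfox3. With Top2b shRNA 3 of the 7 fibroblast and meningeal markers were higher (median 1.29) and no neuron marker was called (median −0.76). The mean of the fibroblast and meningeal list was 7.36 to 8.24 with Top1 shRNA, 6.96 to 7.93 with Top2b shRNA and 5.87 to 6.61 with control shRNA. The mean of the neuron list was 8.52 to 9.22, 9.08 to 9.69 and 10.11 to 10.21 in the same order of groups. Of 9 astrocyte markers 1 was higher and 1 lower with Top1 shRNA (median 0.98, 8 of 9 positive), and none was called with Top2b shRNA (median 0.88, 9 of 9 positive). Their list mean was 7.97 to 8.61 with Top1 shRNA and 7.95 to 9.69 with Top2b shRNA, both above the 7.64 to 7.80 with control shRNA. None of the 7 microglia markers tested was called under either shRNA, and all 7 changes were positive under both, with medians of 0.74 for Top1 and 0.70 for Top2b shRNA. Their list mean was 4.67 to 6.14 with Top1 shRNA, 4.44 to 6.93 with Top2b shRNA and 4.63 to 5.17 with control shRNA. The part of these cells in the change of the members was not tested.

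The rest of the interferon pathway changed in part with Top1 shRNA, with 8 of 30 genes tested higher and none lower (median 0.19). Of all genes 6.08% were higher and 5.79% lower. The receptor chains Ifngr1, Il10rb and Ifnar2 changed by 1.25, 1.06 and 0.72, and Ifnar1 by 0.14 (adjusted p = 0.843). Tlr3, the endosomal receptor for double-stranded RNA, read 8.42, 8.87 and 8.59 with Top1 shRNA, against 6.49, 6.58 and 6.49 with control shRNA, a change of 2.11 (adjusted p = 0.00264). Every Top1 shRNA array stood well above the controls, replicate 1 included. Mavs, the adaptor of Ddx58 and Ifih1, changed by 1.45 (adjusted p = 0.0211), Samhd1 by 1.29, Irf1 by 1.16, Irf2 by 1.03, and Irf3 by 0.08 (adjusted p = 0.874). None of the 4 JAK and STAT genes and none of the 4 interferon genes above the dim limit was called; the other 5 interferon genes listed were dim. With Top2b shRNA Tlr3 alone was called, at 1.33 (adjusted p = 0.0258), against 1.99% of all genes called higher, and Mavs was at 1.13 (adjusted p = 0.0946).

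Of 25 further interferon-stimulated genes 10 were higher with Top1 shRNA and 1 lower (median 1.10), against 6.08% and 5.79% of all genes. The largest changes were those of the GTPase Irgm2 (2.06), the ADP-ribosyltransferase Parp12 (1.89), the lectin Lgals9 (1.78) and Ifi27 (1.74), and the lower gene was the nucleotide kinase Cmpk2 (−1.08). With Top2b shRNA Lgals9 was called (1.11), against 1.99% of all genes called higher. Of the 11 members called higher with Top1 shRNA that had a promoter 7 held the core and 3 the full element, and of the 10 tested and not called 4 held the core and 2 the full element. Among all genes tested with the full element 7 of 30 were higher and 2 lower (median 0.46), and outside the lists used here 3 of 23 were higher and 2 lower (median 0.32). Of genes without it 6.06% were higher (median −0.02).

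**Figure D2:**
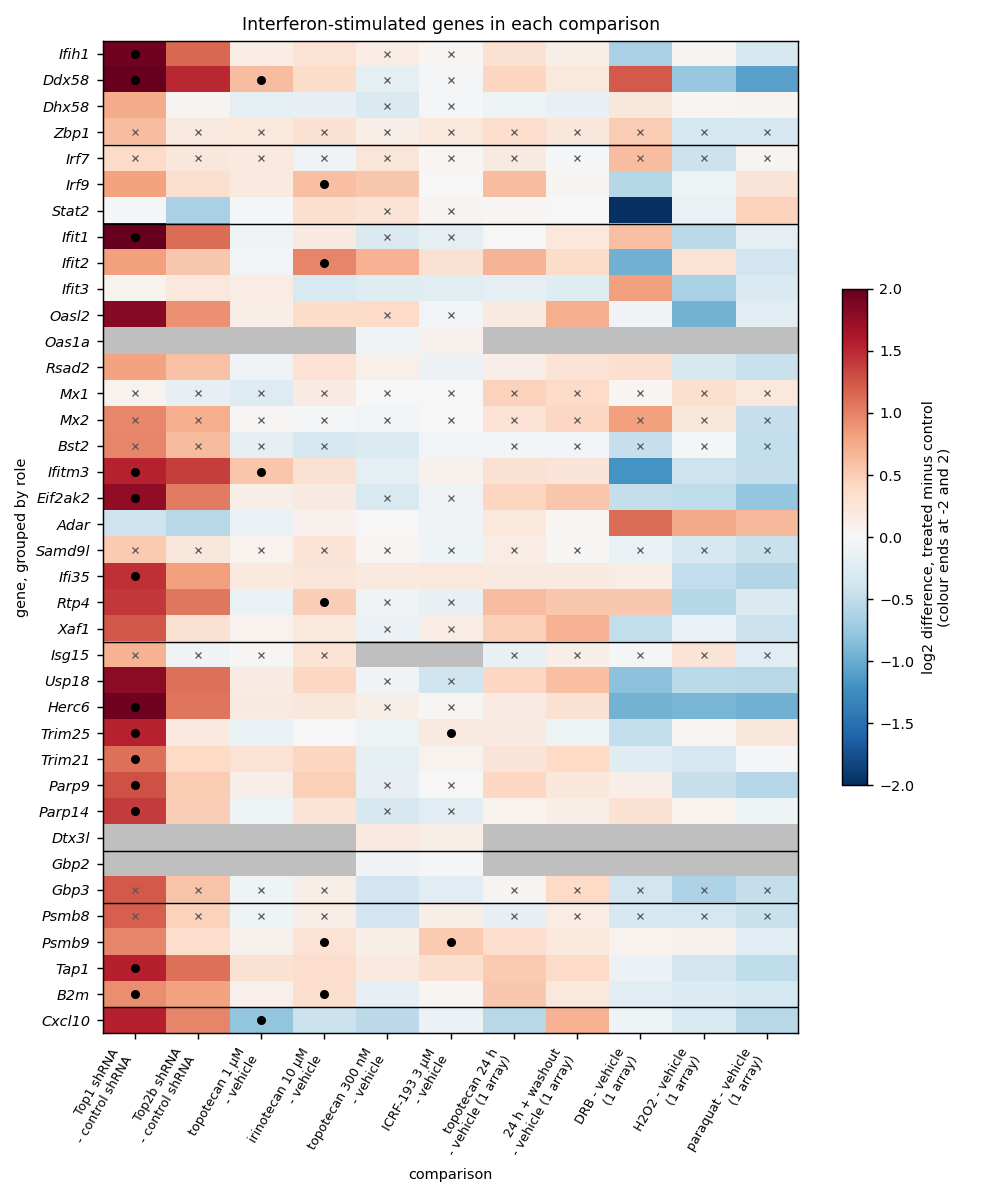
Log2 change of each member (rows, by role) in each comparison of groups (columns), treated minus its own control, with colour ends at −2 and 2. The 5 columns from 24 h of topotecan on are single arrays without a test. Dots mark an adjusted p under 0.05, crosses mark genes dim on that array type, and grey marks genes with no probe set of their own. The Top1 shRNA column holds 13 dots, irinotecan 5, topotecan at 1 µM 3, ICRF-193 2, and Top2b shRNA and topotecan at 300 nM none.

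Topotecan at 1 µM called 3 of 26 members, 2 higher and 1 lower, against 18.3% of all genes higher and 20.8% lower. The median member changed by 0.11 and that of all genes by −0.01. Ddx58 was 8.19 at the lowest, 8.52 at the median and 8.73 at the highest of the 6 topotecan arrays, and 7.53, 7.73 and 8.81 in the 6 vehicle arrays. Its change was 0.62 (SE 0.18, adjusted p = 0.0138), and the ranges overlapped through vehicle array 4. Ifitm3 changed by 0.55 (SE 0.13, adjusted p = 0.0034), with 10.05, 10.51 and 10.63 in topotecan arrays and 9.72, 9.77 and 10.43 in vehicle arrays, and vehicle array 4 was again the highest vehicle.

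Cxcl10 went the other way. It was 5.27 at the lowest, 5.74 at the median and 6.29 at the highest with topotecan, and 6.39, 6.54 and 6.68 with vehicle, without overlap. Its change was −0.79 (SE 0.14, adjusted p = 0.000463). Ifit1 (−0.07), Ifit3 (0.16), Irf9 (0.20), Stat2 (−0.03), B2m (0.10), Eif2ak2 (0.11) and Adar (−0.13) were not called, with adjusted p from 0.0776 to 0.829.

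Vehicle array 4 was the highest of the 6 vehicle arrays in 24 of the 26 members tested and in 25.1% of all genes tested. Without it, 7 members were higher, against 20.0% of all genes, and 2 lower, against 24.3%. The higher ones were Ddx58 (0.80), Ifitm3 (0.66), Tap1 (0.40), Usp18 (0.40), Ifi35 (0.29), Irf9 (0.28) and Eif2ak2 (0.23), and the lower ones were Cxcl10 (−0.76) and Adar (−0.17). Without topotecan array 4 there were 5 calls, with no share of all genes given. The mean of all measured members was 6.09 to 6.57 in topotecan arrays and 6.05 to 6.69 in vehicle arrays. Of the astrocyte markers 7 of 9 were lower and 1 higher, with list means of 7.18 to 7.29 with topotecan and 8.22 to 8.43 with vehicle. Of the neuron markers 8 of 10 were lower, with list means of 9.17 to 9.74 and 9.60 to 10.22 in the same order. Vehicle array 4 gave the 9.60, and the other vehicle arrays had 10.11 to 10.22. That array also had the highest vehicle means of the astrocyte (8.43), fibroblast and meningeal (7.36) and endothelial (5.34) lists. The part of any of these in the members' values was not tested.

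Irinotecan at 10 µM called 5 of 26 members higher, against 16.5% of all genes, and none lower. The median member changed by 0.29, that of all genes by 0.07, and 16 members had an unadjusted p under 0.05, against 41.4% of all genes. All irinotecan arrays lay above both vehicle arrays for 17 of 26 members, against 36.3% of all genes. Irf9, the DNA-binding part of the interferon-activated complex, read 7.66, 7.68 and 7.61 with irinotecan, against 7.02 and 7.06 with vehicle, a change of 0.61 (SE 0.07, adjusted p = 0.00125). Ifit2, an RNA-binding relative of Ifit1, read 5.25, 5.30 and 5.13 with irinotecan, against 3.93 and 4.59 with vehicle, a change of 0.97 (SE 0.18, adjusted p = 0.00845), with the vehicles further apart than the treated arrays. Rtp4, a receptor transport protein with antiviral action, changed by 0.49 (adjusted p = 0.00339), B2m by 0.35 (adjusted p = 0.0164) and Psmb9 by 0.29 (adjusted p = 0.0369). The vehicle means of Rtp4 (3.98), Ifit2 (4.26) and Psmb9 (4.59) lay under the dim limit of 5.01. That limit was applied to the mean over all arrays of the type, in which brighter arrays of other experiments count.

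The sensors and the chemokine were not called with irinotecan. Ddx58 read 6.04, 6.40 and 6.47, against 5.99 and 5.87 with vehicle, a change of 0.37 (adjusted p = 0.0794). Cxcl10 read 4.90, 5.17 and 5.34, against 5.78 and 5.34 with vehicle, a change of −0.42 (adjusted p = 0.0975). Ifit1 (0.17), Ifit3 (−0.31), Stat2 (0.33), Ifitm3 (0.31), Eif2ak2 (0.17) and Adar (0.08) had adjusted p from 0.0718 to 0.534. Without irinotecan array 1 there were 8 calls, with no share of all genes given. Of the astrocyte markers 4 of 9 were lower, with list means of 6.72 to 6.86 with irinotecan and 7.19 to 7.40 with vehicle. Of the microglia markers 2 of 7 were higher (median 0.23), with list means of 4.80 to 4.86 with irinotecan and 4.58 to 4.65 with vehicle. The part of either was not tested.

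**Figure D3:**
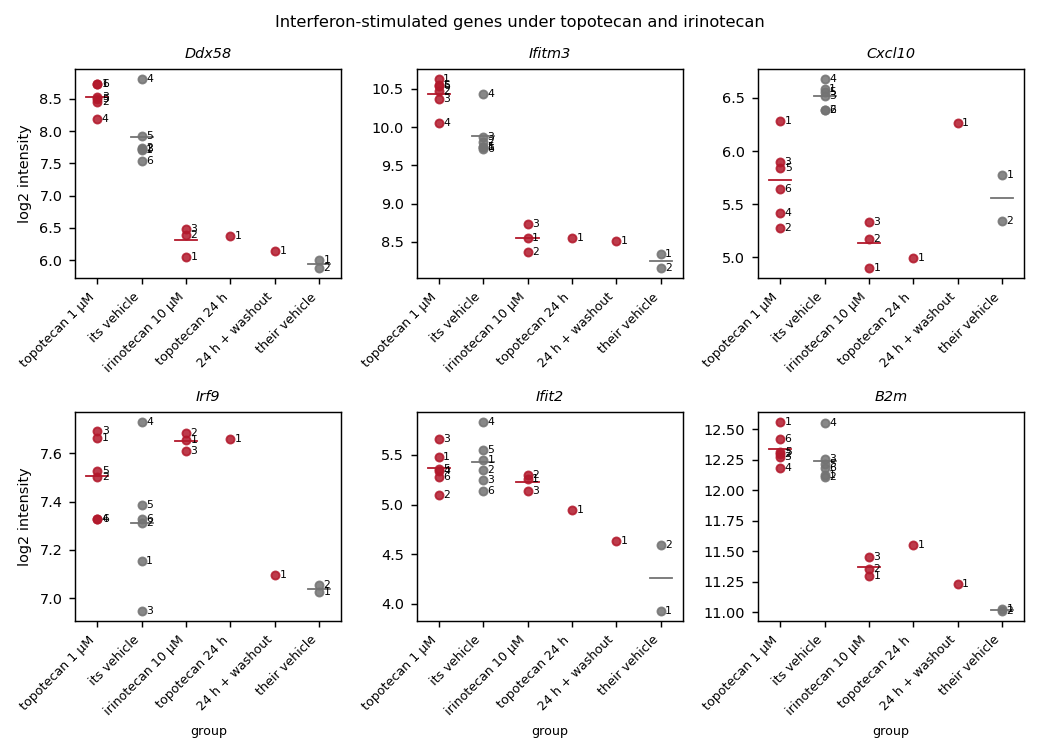
Log2 intensity (vertical axes) of 6 members in topotecan 1 µM arrays (n = 6) and their vehicle (n = 6), and in irinotecan 10 µM (n = 3), topotecan 24 h (n = 1) and washout (n = 1) arrays with their shared vehicle (n = 2). Points are arrays with their replicate number and bars are means. Cxcl10 lies below its vehicle range with topotecan at 1 µM, and vehicle array 4 is the highest of its 6 vehicle arrays in each of the 6 genes.

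Topotecan and irinotecan are related camptothecin derivatives, but dose and array set differed, so their values stand side by side without a test. Cxcl10 changed by −0.79 with topotecan and −0.42 with irinotecan, Irf9 by 0.20 and 0.61, Ddx58 by 0.62 and 0.37, and Ifit2 by −0.06 and 0.97. Upstream genes were called under both. With topotecan at 1 µM 13 of 30 pathway genes were higher and 1 lower, against 18.3% and 20.8% of all genes. With irinotecan 12 were higher and none lower, against 16.5% and 11.7% of all genes. Ifnar1 changed by 0.32 with topotecan and 0.43 with irinotecan, Ifnar2 by 0.34 and 0.28, Irf3 by 0.36 and 0.61, Mavs by 0.31 and 0.28, and all 8 changes were called. Il10rb (1.01), Tlr3 (0.65) and Samhd1 (0.53) led with topotecan, where Irf2 was lower (−0.24). Tlr3 (0.68), Jak2 (0.64) and Irf3 led with irinotecan.

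Of the 25 further interferon-stimulated genes topotecan at 1 µM had 9 higher and 3 lower, against 18.3% and 20.8% of all genes. Sp100 (0.71) and Lgals9 (0.52) led the higher ones, and the chemokine Ccl5 (−0.66), the class I heavy chain H2-K1 (−0.57) and its transcription activator Nlrc5 (−0.38) were the lower ones. Irinotecan had 7 higher and none lower, against 16.5% and 11.7% of all genes. Lgals3bp (0.51) and Tapbp (0.47), the chaperone that bridges class I molecules to the transporter, led them.

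The single arrays of topotecan for 24 h and of its washout were set against the same 2 vehicle arrays as irinotecan, without a test. After 24 h of topotecan 3 of 26 members were over 1.5-fold higher than the vehicle mean, against 4.63% of all genes, and none was over 1.5-fold lower, against 5.28%. Irf9 read 7.66 after 24 h of topotecan and 7.10 after washout, against 7.02 and 7.06 in the vehicles, so the 24 h array stood apart and the washout array lay next to the vehicles. Ifit2 (0.69), Irf9 (0.62) and Rtp4 (0.61) were the 3 higher ones, followed by B2m (0.53) and Tap1 (0.52). The 24 h array read 4.95 for Ifit2 and 4.60 for Rtp4, both under the dim limit of 5.01. Cxcl10 was lowest (−0.56), with Ifit3 (−0.17), Dhx58 (−0.10) and Ifit1 (−0.01) after it and all others above 0.

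After washout 4 of 26 were over 1.5-fold higher, against 0.398% of all genes, and none was lower, against 0.421%. The 4 were Oasl2 (0.72), Cxcl10 (0.70), Xaf1 (0.69) and Usp18 (0.60), followed by Eif2ak2 (0.56). Xaf1 read 4.82 after washout and 4.12 in the vehicle mean, both under the dim limit of 5.01. Cxcl10 read 6.26 after washout and 5.00 after 24 h of topotecan, against 5.78 and 5.34 in the vehicles: above both after washout and below both after 24 h. Against vehicle 1 alone 4 members were over 1.5-fold higher after washout (0.917% of all genes), and against vehicle 2 alone 2 were (0.624%). The median member differed by 0.28 after 24 h (all genes 0.08) and by 0.22 after washout (all genes −0.01).

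On the 3′ arrays topotecan at 300 nM called none of 19 members, against 4.4% of all genes in either direction, and 1 member, Ifit2, had an unadjusted p under 0.05 (change 0.70, adjusted p = 0.111), against 21.6% of all genes. The members varied within both groups instead. Usp18 read 5.53, 8.23 and 6.11 with topotecan, against 5.57, 5.12 and 9.38 with vehicle. Oasl2 read 4.91, 8.54 and 6.13, against 4.84, 4.58 and 9.04 with vehicle, and Rtp4 read 6.65, 9.16 and 6.99, against 6.59, 6.25 and 10.17 with vehicle. In all 3, which are dim on average and were outside the test, topotecan array 2 and vehicle array 3 were high and the other 4 low.

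The same 2 arrays led most members. Topotecan array 2 was the highest topotecan array in 27 of 37 members measured, and in 13 of the 19 tested, against 26.8% of all genes tested. Vehicle array 3 was the highest vehicle array in 29 of 37, and in 13 of 19, against 31.5% of all genes tested. Both were the 2 highest of the 6 arrays in 20 of 37 and in 8 of 19, against 5.08%. Exceptions were Ifit2, with 8.38, 8.43 and 8.54 in topotecan arrays and 8.22, 7.41 and 7.61 in vehicle arrays, and Adar, with 10.46, 10.36 and 10.42 in topotecan arrays and 10.32, 10.42 and 10.49 in vehicle arrays.

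The median range between arrays of 1 group was 0.95 for the members with topotecan (all genes 0.27) and 0.89 with its vehicle (all genes 0.31). With ICRF-193 on the same array type it was 0.15 (all genes 0.11), and 0.26 with the vehicle of ICRF-193 (all genes 0.14). Ranges over 1 on the log2 scale were seen for 18 and 17 of 37 members with topotecan and its vehicle, and for none with ICRF-193 or its vehicle. Microglia list means were 6.39 to 6.97 with topotecan and 6.67 to 7.02 with its vehicle, and 5 of 9 astrocyte markers were lower (median −1.26), with list means of 9.46 to 9.98 with topotecan and 10.86 to 11.05 with its vehicle. The part of either was not tested. Without vehicle array 1 there was 1 call, with no share of all genes given. Irf9 changed by 0.55 (adjusted p = 0.426), Ifit3 by −0.25, Ifitm3 by −0.20, B2m by −0.16, Bst2 by −0.28 and Adar by 0.01, with adjusted p from 0.733 to 0.976 for these 5.

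ICRF-193 called 2 of 19 members higher, against 8.29% of all genes, and none lower. Psmb9 read 7.14, 7.45 and 7.21 with ICRF-193, against 6.42, 6.73 and 7.06 with vehicle, a change of 0.53 (SE 0.15, adjusted p = 0.0479). Trim25 read 7.17, 7.19 and 7.21, against 6.92, 7.04 and 7.07 with vehicle, a change of 0.18 (SE 0.05, adjusted p = 0.0382). In both genes the groups stood apart by a narrow gap. The median member changed by 0.06 (all genes 0.00), and Irf9 (0.00), Ifitm3 (0.08), B2m (0.04), Bst2 (−0.05), Adar (−0.07) and Ifit3 (−0.20) were not called.

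Same-numbered ICRF-193 and vehicle arrays deviated together (r = 0.38, 0.23 and 0.38) and were taken as paired on that ground alone. With the number as a block 4 of 19 were higher, against 12.7% of all genes. Tap1 (0.33, adjusted p = 0.0150) and Ifit2 (0.31, adjusted p = 0.00275) joined Psmb9 and Trim25. Leaving out any of the 3 ICRF-193 arrays, vehicle array 1 or vehicle array 2 gave no call, and leaving out vehicle array 3 gave 5, so the calls depended on single arrays. Of the astrocyte markers 7 of 9 were lower with ICRF-193 (median −0.43), with list means of 10.17 to 10.37 with ICRF-193 and 10.60 to 10.83 with vehicle, and their part was not tested. The change with topotecan at 300 nM minus that with ICRF-193 was called for none of 19 members, against 3.6% of all genes, and none had an unadjusted p under 0.05, against 18.1%. Of 26 pathway genes ICRF-193 had 6 higher and none lower, led by Irf2 (0.28), and topotecan at 300 nM had none called. Of 22 further interferon-stimulated genes 1 was higher with ICRF-193, Pml (0.24), and none was called with topotecan. Of all genes ICRF-193 had 8.29% higher and 10.3% lower, and topotecan had 4.4% called in either direction.

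In the dose series no trend was found. None of 13 members had a slope per dose rank that passed the test, against 3.45% of all genes, and 1 had an unadjusted p under 0.05, against 19.1%. The array at 1000 nM and vehicle arrays 1 and 2 were the 3 highest of the 10 arrays in 30 of 36 members measured and in 10 of 13 tested, against 20.5% of all genes tested. Oasl2 read 6.22, 8.31 and 8.24 in vehicle arrays 3, 1 and 2, then 6.41 at 3 nM, 6.23 at 30 nM, 6.21 at 150 nM, 6.64 and 6.54 at 300 nM, 6.70 at 500 nM and 8.51 at 1000 nM. Ifit3 read 5.85, 8.40 and 8.49 in the same vehicle arrays, then 6.50, 6.19, 6.02, 6.13 and 6.19, 6.34, and 8.30 over the same doses. Both were high at 1000 nM and in 2 of 3 vehicles and low elsewhere.

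The median member at 1000 nM was 0.08 and 0.04 above vehicle arrays 1 and 2, and 1.25 above vehicle array 3. At 500 nM it was 0.16 above vehicle array 3. Astrocyte markers moved with the same arrays, with list means of 8.85 at 1000 nM, 9.93 and 9.97 in vehicle arrays 1 and 2, 8.13 in vehicle array 3 and 7.65 to 8.32 at the other doses. Microglia list means were 6.65 and 6.67 in vehicle arrays 1 and 2, 6.08 in vehicle array 3, 6.11 at 1000 nM and 6.02 to 6.21 at the other doses. Oligodendrocyte lineage list means were 6.88 at 1000 nM, 7.17 and 7.13 in vehicle arrays 1 and 2, 5.97 in vehicle array 3 and 5.94 to 6.25 at the other doses. Fibroblast and meningeal list means were 9.02 at 1000 nM, 8.79 and 8.83 in vehicle arrays 1 and 2, 8.07 in vehicle array 3 and 7.86 to 8.34 at the other doses. Neuron list means were 10.91 at 1000 nM, and 11.17 and 11.20 in vehicle arrays 1 and 2. They were 11.37 in vehicle array 3 and 11.30 to 11.38 at the other doses. The part of any of these was not tested. Without these 3 arrays, a choice that rests on an earlier look at them, Irf9 alone was called, with a slope of 0.09 per dose step. It read 7.66 in vehicle array 3 and 8.00 at 500 nM. The share of all genes called in that fit is not given, so this call cannot be set against a background.

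**Figure D4:**
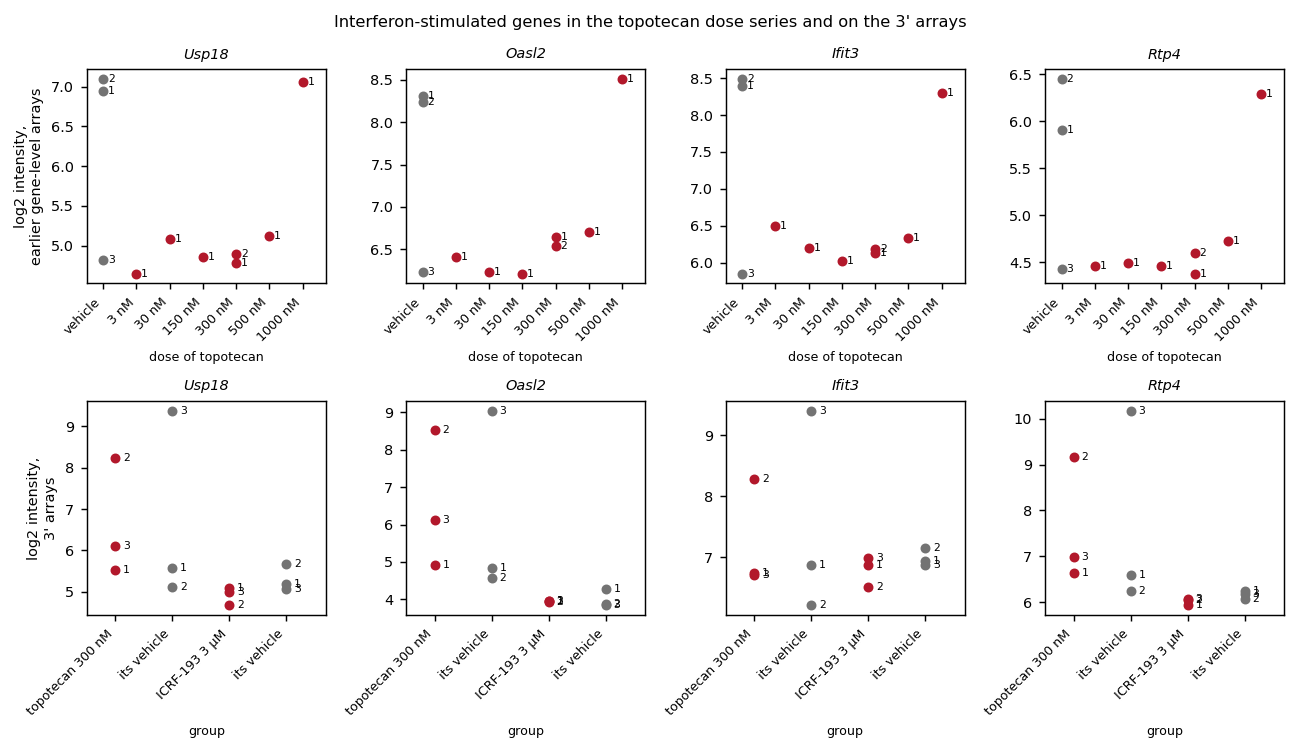
Log2 intensity (vertical axes) of Usp18, Oasl2, Ifit3 and Rtp4 by array in the dose series (vehicle at the low end, then doses in nM) and on the 3′ arrays (topotecan 300 nM and ICRF-193, each left of its vehicle). Points are arrays. In the dose series 1000 nM and 2 vehicle arrays are high, and in the 300 nM experiment 1 topotecan and 1 vehicle array are high.

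The remaining treatments had 1 array each and no test. With DRB 4 of 26 members were over 1.5-fold higher, against 12.2% of all genes, and 6 over 1.5-fold lower, against 37.0%. The median member differed by −0.10 and that of all genes by −0.34. Ddx58 read 7.76 with DRB, against 6.54 with its vehicle, and Adar 9.66, against 8.55 with vehicle, both more than 1 log2 unit higher. Stat2 read 5.42, against 7.80 with vehicle, the lowest difference among the members, and Ifitm3 read 7.90, against 9.10 with vehicle. Ifit3 (0.83) and Ifit1 (0.61) were the other higher members, followed by Rtp4 (0.54), and Ifit2 (−0.97), Herc6 (−0.94) and Usp18 (−0.82) followed among the lower ones.

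For the oxidants the result depended on the vehicle array. Against the mean of both vehicles hydrogen peroxide had 1 of 26 members over 1.5-fold higher, against 7.93% of all genes, and 4 lower, against 5.0%. Against vehicle 1 alone it had 1 higher and 14 lower (21.5% and 12.5% of all genes), and against vehicle 2 alone 1 higher and 2 lower (5.46% and 5.47%). Paraquat had 1 higher and 4 lower against the mean of both (13.7% and 7.15% of all genes). Against vehicle 1 alone it had 2 higher and 13 lower (26.8% and 14.4%), and against vehicle 2 alone none in either direction (5.1% and 2.3%). Vehicle 1 lay above vehicle 2 in 23 of 26 members, against 41.9% of all genes.

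Herc6 read 5.94 with hydrogen peroxide and 5.90 with paraquat, against 7.45 and 6.27 in vehicles 1 and 2, and Ddx58 read 6.97 and 6.65, against 8.38 and 7.08. Both oxidant arrays lay below both vehicles in these genes. Oasl2 (−0.95), Ifit3 (−0.65) and Rtp4 (−0.57) completed the 5 lowest with hydrogen peroxide, and Eif2ak2 (−0.77), Ifi35 (−0.59) and Parp9 (−0.57) those with paraquat. Adar was the highest in both, at 0.76 and 0.65. The mean of the neuron list was 9.29 in vehicle 1 and 10.63 in vehicle 2, and that of the fibroblast and meningeal list 8.15 and 7.15, and the part of these differences was not tested.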

How the data were processed

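The authors deposited array intensity values summarised by RMA with Affymetrix Expression Console, per the submitters' processing notes. They are on a linear scale, so log2 was taken here, although log2 values had been anticipated. Groups follow sample titles, which some descriptions contradict. The members and gene lists were chosen with earlier results of these data known. Probe sets with several symbols or none were left out, 932 and 9211 of 45101 on the 3′ arrays, 1881 and 12457 of 35556 on the earlier and 1814 and 16010 of 41345 on the later gene-level arrays. The brightest probe set stood for a gene, and dim genes, with a mean below the 40th percentile of their array type (log2 intensity 7.04, 6.02 and 5.01) were left out, leaving 10916, 11292 and 13308. Each array type was fitted alone with limma 3.58.1 (R 4.3.3; lmFit, eBayes, two-sided), with Benjamini-Hochberg adjustment over all genes kept. The 3 shRNA groups shared a fit, the dose series was tested for a slope over dose rank, and single arrays were described by differences over 1.5-fold. Arrays carry no counts, so their number limits the precision.

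Named members are those past the adjusted p of 0.05, plus a fixed set (Ifit1, Ifit3, Irf9, Stat2, B2m, Bst2, Ifitm3, Eif2ak2 and Adar where tested, and Isg15 and Irf7). Others named were chosen after their values were seen. Same-numbered arrays deviated together for ICRF-193 and vehicle (r = 0.38, 0.23 and 0.38), which were taken as paired. They also did for Top2b shRNA and control (r = 0.45, 0.39 and 0.35). There the level of replicate 1 can give such r values too, so pairing was not shown. Alternatives were no filter, quantile normalization, other probe set rules, blocks and left-out arrays. The fits were tested on simulated data. Promoter motifs and figures used Python 3.11.15, pandas 2.3.3 and matplotlib 3.10.9.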

Additional observations from a re-analysis of the deposited data

Results flagged for a closer look

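Within the 6 topotecan 1 µM and 6 vehicle arrays, 52 groups of values were screened with Dixon's test (critical value 0.625), and chance flags about 1 in 20 groups. Topotecan replicate 4 lay apart at the low end for Ifi35, at 6.01 against 6.55 to 6.60 in the other topotecan arrays, and for Xaf1, at 5.22 against 5.74 to 5.98. Vehicle replicate 4 lay apart at the high end for 7 members. Ddx58 read 8.81 there against 7.53 to 7.92 in the other vehicle arrays, Ifitm3 10.43 against 9.72 to 9.87, and Eif2ak2 8.0 against 7.26 to 7.45. These are a sensor and a pair of antiviral effectors. Ifi35 read 6.77 against 6.03 to 6.30, Parp9 6.62 against 5.65 to 5.92, Tap1 7.75 against 7.04 to 7.28, and B2m 12.55 against 12.11 to 12.25. Adar lay apart at the low end in the same array, at 8.07 against 8.24 to 8.34.

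Probe sets shared by 2 genes were outside the comparisons. The one shared by Dtx3l and Parp9 was 1.39 higher on the log2 scale with Top1 shRNA than with control shRNA, its lowest Top1 shRNA array being at 6.13 and its highest control array at 5.15. The one shared by Gbp2 and Gbp2b, guanylate-binding proteins, was 2.1 higher with Top1 shRNA (lowest array 6.93) and 1.42 higher with Top2b shRNA (lowest array 6.60), with the highest control array at 5.89. Which gene of each pair gave the signal was not tested.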

How the results depend on the processing

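Counts of members called depended on the setting, and the cause was not tested. A count without a share of all genes beside it does not set the members apart from other genes. For Top1 shRNA the 13 calls became 5 with dim genes included, 10 with quantile normalization, 17 with the replicate block (adding Psmb9, adjusted p = 0.0274, Xaf1, 0.0406, Ifit2, 0.0491, and Cxcl10, 0.0499), 16 with the array set as a block, 21 over replicates 2 and 3 (21 with the block too), and 4 to 19 with 1 array left out. Of all genes 11.9% were called in the main fit, in either direction. The share was 23.5% with the replicate block, 28.4% with the array set as a block and 44.7% over replicates 2 and 3. Top2b shRNA, with no call, had 4 with the replicate block, 7 with the array set as a block, 10 over replicates 2 and 3 (9 with the block), and 0 to 3 with 1 array left out. The shares of all genes called with the replicate block, with the array set as a block and over replicates 2 and 3 were 10.2%, 14.9% and 22.6%. Top1 against Top2b shRNA, also with no call, had 17 over replicates 2 and 3, against 14.2% of all genes, and 14 with the block. The array-set block and the blocked fits of replicates 2 and 3 were chosen after seeing the data. The choice of replicates 2 and 3 itself rests on an earlier look at these arrays. The 3 calls of topotecan at 1 µM became 5 with quantile normalization and 3 to 9 with 1 array left out. The 5 of irinotecan became 3 without the filter, against 2226 of all 22180 genes, and 4 to 8 with 1 array left out. The 2 of ICRF-193 became 0 without the filter, 4 with the replicate block and 0 to 5 with 1 array left out. Topotecan at 300 nM and its difference from ICRF-193 had 0 to 1 with 1 array left out, and the dose trend had 1 without 1000 nM and vehicles 1 and 2. Single arrays past the fold limit numbered 10 for DRB (4 at 2-fold), 5 for hydrogen peroxide (15 without vehicle 2, 3 without vehicle 1, 0 at 2-fold), 5 for paraquat (15, 0 and 1 in that order), 3 after 24 h of topotecan (5 without vehicle 2, 0 at 2-fold) and 4 after washout (2 without vehicle 1, 0 at 2-fold).

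Members called in a comparison kept their direction in every alternative run of it. Members not called could take the other sign, as did Ifit1, Stat2 and Ifit2 with topotecan at 1 µM without vehicle 4 (0.09, 0.02 and 0.03). Their call held in 168 settings and was lost in 53 for Top1 shRNA, in 50 and 1 for topotecan at 1 µM, 40 and 10 for irinotecan, and 8 and 14 for ICRF-193. Same-numbered arrays of Top1 and control shRNA had correlated deviations in 2 of 3 pairs (r = 0.32, 0.06 and 0.29), which was not taken as pairing; those of topotecan at 300 nM (−0.01, −0.16 and −0.45) and irinotecan (−0.01 and −0.03) were not positively correlated. The replicate block gave 2 calls for topotecan at 1 µM, 4 for irinotecan and 0 for topotecan at 300 nM. No paired analysis was possible for single arrays because each is 1 treated array, and none was run for the dose slope, where only the 300 nM and vehicle titles carry numbers.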
